A study of Mus musculus with 14 samples.

Results

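The genes described here are 32 members of the unfolded protein response, found by symbol in the deposited count tables of this series. All 32 are listed among the 50600 genes of the bulk table, the 11992 genes of the hematopoietic progenitor table and both stromal tables. By role they comprise 5 chaperones of the endoplasmic reticulum (ER), 4 co-chaperones, 4 protein disulfide isomerases, 2 secreted luminal proteins, 4 genes of ER-associated degradation, 4 genes of stress sensing (the sensors Ern1, Eif2ak3 and Atf6 and the factor Xbp1), 6 genes of the PERK-ATF4 branch and 3 genes of the translocon and its partners. The first 4 roles, 15 genes, are called the chaperone arm below and are set against the 6 PERK-ATF4 genes.

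The study profiled bone marrow cells of tumour-free and tumour-bearing mice. Bulk RNA-seq was done on mesenchymal stem cells (MSC) from 4 tumour-free libraries and 4 libraries of mice with tumours of Py230, a mammary cancer line that came from a PyMT mouse, and the labels do not give its site, the strain of the host or how long the tumours grew. Single-cell RNA-seq was done on marrow stromal cells of 1 wild-type (WT) and 1 PyMT mouse library, and on hematopoietic stem and progenitor cells (HSPC) of 2 WT and 2 PyMT mice. PyMT mice carry the polyoma middle T oncogene, which in the common breast cancer model is driven by the MMTV promoter in mammary epithelium. The labels give neither promoter, strain nor age, and no treatment. Every HSPC title begins with PyMT, but 2 of the 4 libraries are WT by their genotype label and by the authors' cell metadata, and are treated as WT. No label ties the bulk libraries to separate animals, and their p-values then measure only a spread between libraries that may be technical.

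The ER folds secreted and membrane proteins. When unfolded protein builds up there, sensors in its membrane respond: IRE1 (Ern1) splices Xbp1 mRNA, ATF6 (Atf6) is cut to release a transcription factor, and PERK (Eif2ak3) phosphorylates eIF2 and thereby favours translation of ATF4. XBP1 and ATF6 are known to act on genes for chaperones, isomerases and degradation of misfolded protein, and ATF4 on genes for amino acid supply and on Ddit3 (CHOP). Chaperone-rich ER is known from cells that secrete heavily, such as plasma cells, and from granule-making myeloid progenitors. The splicing of Xbp1, the cleavage of ATF6 and the phosphorylation of PERK are not seen in the counts used here.

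Promoter sequences are shown for the members in which known stress elements were found, since these elements are the textbook basis for treating the chaperone genes and the PERK-ATF4 genes as separate arms. Windows of 250 bases before to 50 bases after the start site were available from RefSeq (build GRCm38.p6, the assembly of mm10) for 28 of 32 members, and none for Manf, Hyou1, Atf6 and Sec61a1. The ER stress response element (ERSE, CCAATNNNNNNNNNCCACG), the motif bound by ATF6 and XBP1 together with NF-Y, was searched on both strands. It was found in 8 members, of which 7 are among the 13 chaperone-arm genes with a window and 0 among the 6 PERK-ATF4 genes, and in 0.119% of all 32851 windows. The shorter ERSE-II (ATTGGNCCACG) was found in Dnajb11 and Herpud1 and in 0.0365% of all windows. The amino acid response element bound by ATF4 and C/EBP factors (CARE, TGATGNAA) was found in Asns, Chac1, Trib3 and Herpud1, in none of the 13 chaperone-arm windows and in 3.97% of all windows. ERSE and ERSE-II both end in CCACG, a stretch that 32.8% of all windows hold. A match is a description of these letters, and a window without a match says nothing about the factor. The ERSE copies are shown 5′ to 3′ on the strand of the gene because the same fixed letters recur before different genes. Capitals mark the fixed letters, and a copy that begins with CGTGG, or with TT for CARE, is the motif in reverse orientation.
Calr ERSE, chr8:84847075-84847093, minus strand, 162 bases before the start: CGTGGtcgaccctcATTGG
Canx ERSE, chr11:50325800-50325818, minus strand, 145 bases before the start: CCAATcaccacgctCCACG
Creld2 ERSE, chr15:88819520-88819538, plus strand, 126 bases before the start: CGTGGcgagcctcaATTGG
Dnajc3 ERSE, chr14:118937827-118937845, plus strand, 105 bases before the start: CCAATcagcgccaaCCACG
Hsp90b1 ERSE, chr10:86705638-86705656, minus strand, 212 bases before the start: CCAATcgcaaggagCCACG
Hsp90b1 ERSE, chr10:86705533-86705551, minus strand, 107 bases before the start: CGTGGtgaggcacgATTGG
Hspa5 ERSE, chr2:34772025-34772043, plus strand, 65 bases before the start: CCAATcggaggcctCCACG
Pdia6 ERSE, chr12:17266491-17266509, plus strand, 98 bases before the start: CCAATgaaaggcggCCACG
Syvn1 ERSE, chr19:6046532-6046550, plus strand, 44 bases before the start: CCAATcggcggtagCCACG
Dnajb11 ERSE-II, chr16:22857852-22857862, plus strand, 7 bases after the start: ATTGGcCCACG
Herpud1 ERSE-II, chr8:94386377-94386387, plus strand, 52 bases before the start: ATTGGgCCACG
Asns CARE, chr6:7693225-7693232, minus strand, 23 bases before the start: TGATGaAA
Chac1 CARE, chr2:119351049-119351056, plus strand, 193 bases before the start: TTgCATCA
Herpud1 CARE, chr8:94386317-94386324, plus strand, 112 bases before the start: TTgCATCA
Trib3 CARE, chr2:152344039-152344046, minus strand, 14 bases after the start: TTaCATCA

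Whole windows are given for 4 members whose values are followed below: Hspa5 and Pdia6 with an ERSE, Herpud1 with both an ERSE-II and a CARE, and Asns with a CARE. Capitals mark the whole element.
Hspa5, chr2:34771840-34772139, plus strand: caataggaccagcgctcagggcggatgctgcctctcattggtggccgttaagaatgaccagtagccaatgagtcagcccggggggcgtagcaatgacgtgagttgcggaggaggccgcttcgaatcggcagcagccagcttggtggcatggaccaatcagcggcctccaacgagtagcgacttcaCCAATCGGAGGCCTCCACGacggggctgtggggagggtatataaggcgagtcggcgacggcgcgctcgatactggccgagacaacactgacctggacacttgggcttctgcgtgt
Pdia6, chr12:17266339-17266638, plus strand: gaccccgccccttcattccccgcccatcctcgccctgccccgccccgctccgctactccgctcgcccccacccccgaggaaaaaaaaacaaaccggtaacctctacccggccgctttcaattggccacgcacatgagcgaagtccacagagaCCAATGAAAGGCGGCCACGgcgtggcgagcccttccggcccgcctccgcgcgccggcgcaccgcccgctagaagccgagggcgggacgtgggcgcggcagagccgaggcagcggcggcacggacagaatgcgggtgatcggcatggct
Herpud1, chr8:94386179-94386478, plus strand: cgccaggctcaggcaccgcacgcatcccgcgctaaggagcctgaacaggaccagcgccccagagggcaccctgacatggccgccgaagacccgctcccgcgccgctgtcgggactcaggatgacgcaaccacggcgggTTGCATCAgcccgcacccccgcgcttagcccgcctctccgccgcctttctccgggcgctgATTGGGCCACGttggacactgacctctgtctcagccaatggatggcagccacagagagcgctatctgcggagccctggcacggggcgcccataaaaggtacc
Asns, chr6:7693160-7693459, minus strand: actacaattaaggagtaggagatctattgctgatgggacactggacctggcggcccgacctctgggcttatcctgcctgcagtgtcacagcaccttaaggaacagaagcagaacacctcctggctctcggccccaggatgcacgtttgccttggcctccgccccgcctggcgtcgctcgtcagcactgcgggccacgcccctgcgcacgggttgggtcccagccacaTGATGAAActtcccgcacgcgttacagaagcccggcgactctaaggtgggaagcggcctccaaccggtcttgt

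Bulk libraries held 4301375 to 9811251 counts. Tumour-free 1 and Py230 3 had the fewest genes with a count, 25088 and 21009, against 30966 to 36678 in the others. HSPC libraries held 2210 to 5608 cells, with a median of 6644 and 6768 unique molecular identifiers (UMIs) per cell in WT 1 and WT 2 and of 7149 and 4257 in PyMT 1 and PyMT 2, so PyMT 2 was shallower. Of 14748 HSPC barcodes 93 occurred in more than 1 library, and of 6069 stromal barcodes 2 occurred in both. Levels are CPM, counts scaled to a common library total, with TMM factors in bulk and HSPC, and a gene is called at an adjusted p under 0.05. Adjusted p-values are from edgeR's quasi-likelihood test with Benjamini-Hochberg adjustment over all genes tested, unless DESeq2 is named.

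In HSPC of PyMT against WT mice, Xbp1, Pdia6 and Dnajb11 rose, all 15 chaperone-arm genes had a log2 change above 0, and the PERK-ATF4 genes lay on both sides of 0. The comparison asks what marrow progenitors express in tumour-bearing mice. The median log2 change was 0.49 over the 15 chaperone-arm genes, 0.02 over the 6 PERK-ATF4 genes and −0.01 over all 11759 genes tested. Of 32 members tested 3 were called higher, where 0.85% of all genes were called higher. None was lower, where 0.553% of all genes were, and 0 were lower at an unadjusted p under 0.05. DESeq2 called 10 higher, where it called 4.41% of all genes. Both PyMT mice lay above both WT mice for 18 of 32 members and for 12 of 15 in the chaperone arm, where 26.7% of all genes did.

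Among the chaperones, Hspa5 (BiP, the main Hsp70 of the ER) stood at 536 and 397 CPM in WT 1 and WT 2 and 1050.4 and 761 CPM in PyMT 1 and PyMT 2. Both PyMT mice were above both WT mice, a 1.94-fold difference of means, which did not pass the threshold (log2 change 0.96, SE 0.20, adjusted p = 0.0700). Hsp90b1 (GRP94, the Hsp90 of the ER) stood at 373 and 326 CPM in WT 1 and WT 2 and 563 and 411 CPM in PyMT 1 and PyMT 2. Its groups did not overlap either, but PyMT 2 was close to WT 1 (log2 change 0.48, SE 0.15, adjusted p = 0.125). Calr (calreticulin, a lectin that holds glycoproteins for folding) stood at 959 and 710.0 CPM in WT 1 and WT 2 and 1268 and 749.9 CPM in PyMT 1 and PyMT 2. Here the groups overlapped, with PyMT 2 below WT 1 (log2 change 0.27, SE 0.31, adjusted p = 0.645). Canx, the membrane-bound partner of calreticulin, and Hyou1, a nucleotide exchange factor for BiP, had log2 changes of 0.18 (adjusted p = 0.418) and 0.52 (adjusted p = 0.0773).

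Of the co-chaperones, Dnajb11 (ERdj3, a J-protein that hands substrates to BiP) stood at 136 and 122 CPM in WT 1 and WT 2 and 187 and 172 CPM in PyMT 1 and PyMT 2. It rose beyond the spread between mice (log2 change 0.47, SE 0.10, adjusted p = 0.04997), just inside the threshold. Sdf2l1, which works with ERdj3, stood at 219 and 149 CPM in WT 1 and WT 2 and 412 and 301 CPM in PyMT 1 and PyMT 2. This was the second largest difference in the chaperone arm after Hspa5, with no overlap, and it was not called (log2 change 0.95, SE 0.25, adjusted p = 0.120). Dnajb9 and Dnajc3, other J-proteins of the ER, had log2 changes of 0.24 (adjusted p = 0.205) and 0.30 (adjusted p = 0.101), again with no overlap between genotypes.

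Of the disulfide isomerases, Pdia6 stood at 574 and 472 CPM in WT 1 and WT 2 and 909 and 782 CPM in PyMT 1 and PyMT 2. It rose in both PyMT mice (log2 change 0.69, SE 0.13, adjusted p = 0.0423). Pdia4 (ERp72) stood at 137 and 106 CPM in WT 1 and WT 2 and 192 and 154 CPM in PyMT 1 and PyMT 2, higher in both PyMT mice but uncalled (log2 change 0.51, SE 0.15, adjusted p = 0.111). Pdia3, which forms disulfides on glycoproteins, had a log2 change of 0.49 (adjusted p = 0.0678) without overlap, and P4hb, the classical isomerase, 0.20 (adjusted p = 0.652) with overlap. The secreted luminal proteins Manf, a factor released on ER stress, and Creld2 had log2 changes of 0.65 (adjusted p = 0.0917) and 0.67 (adjusted p = 0.0557), with no overlap in either.

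Xbp1, the transcription factor downstream of IRE1, stood at 116 and 92.4 CPM in WT 1 and WT 2 and 170.4 and 166 CPM in PyMT 1 and PyMT 2. It rose 1.61-fold (log2 change 0.69, SE 0.11, adjusted p = 0.0354) and was the only one of the 3 called members to stay called when any 1 of the 4 mice was left out, with adjusted p-values of 1.7e-04 to 0.0448. The sensors did not follow it: Ern1, Eif2ak3 and Atf6 had log2 changes of −0.02, −0.10 and 0.02, each with overlapping groups. For ER-associated degradation, Herpud1, a stress-inducible part of the retrotranslocation complex, stood at 111 and 99.7 CPM in WT 1 and WT 2 and 156 and 135 CPM in PyMT 1 and PyMT 2. The groups were apart but the change was uncalled (log2 change 0.47, SE 0.10, adjusted p = 0.0621). Edem1, which extracts misfolded glycoproteins, and the ligase pair Syvn1 and Sel1l had log2 changes of 0.36, 0.37 and 0.13, all uncalled.

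On the PERK-ATF4 side, Atf4 stood at 71.6 and 73.4 CPM in WT 1 and WT 2 and 76.9 and 57.3 CPM in PyMT 1 and PyMT 2. PyMT 1 was the highest and PyMT 2 the lowest of the 4 mice (log2 change −0.11, SE 0.14, adjusted p = 0.659). Ddit3, the factor CHOP, stood at 20.4 and 19.6 CPM in WT 1 and WT 2 and 14.99 and 18.98 CPM in PyMT 1 and PyMT 2, lower in both PyMT mice but uncalled (log2 change −0.24, SE 0.14, adjusted p = 0.332). Trib3, a pseudokinase induced by ATF4 and CHOP, stood at 3.21 and 5.99 CPM in WT 1 and WT 2 and 4.09 and 5.28 CPM in PyMT 1 and PyMT 2, so the groups overlapped (log2 change 0.05, SE 0.30, adjusted p = 0.936). Asns (asparagine synthetase, a textbook ATF4 target) stood at 34.4 and 35.2 CPM in WT 1 and WT 2 and 42.7 and 42.5 CPM in PyMT 1 and PyMT 2. It alone of the PERK-ATF4 genes with more than a few UMIs lay higher in both PyMT mice, and it was uncalled (log2 change 0.29, SE 0.10, adjusted p = 0.120). Ppp1r15a (GADD34, which returns eIF2 to its unphosphorylated form) had a log2 change of −0.01, and Chac1, a glutathione-degrading enzyme, had only 8, 1, 12 and 12 UMIs in the 4 libraries. The translocon genes Sec61b and Sec61a1 and the translocon-associated Ssr1 had log2 changes of 0.28, 0.14 and 0.11, all with overlapping groups.

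**Figure D1:**
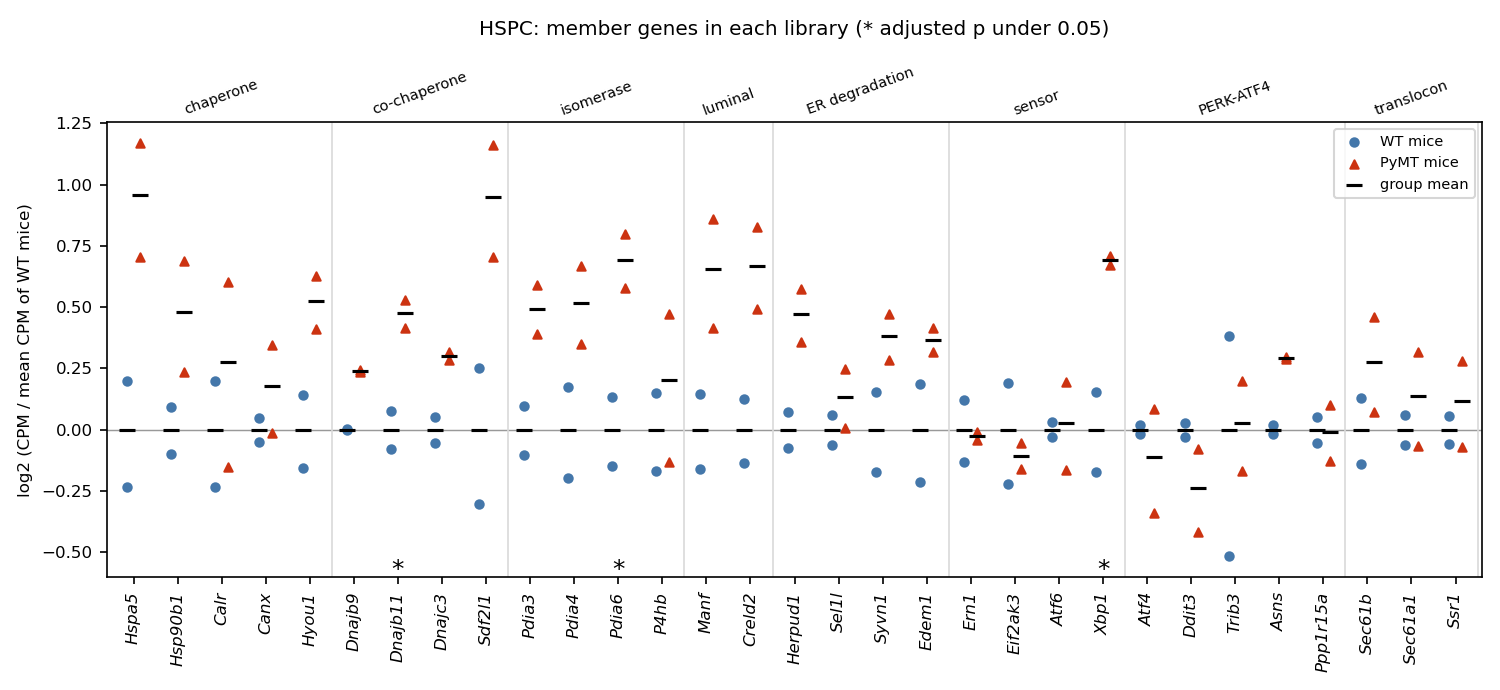
Each HSPC library (points) and each group mean (bars) for 31 members by role, as log2 of the CPM over the mean CPM of the WT mice. Chac1 is left out for its few UMIs. The PyMT points lie above the WT points for 12 of the 15 chaperone-arm genes, while those of Atf4, Trib3 and Ppp1r15a interleave with them.

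The summed CPM of the chaperone arm was 4676 and 3910.2 CPM in the WT mice and 6442 and 5039 CPM in the PyMT mice, and that of the PERK-ATF4 genes 193 and 209 CPM in the WT mice and 183 and 185 CPM in the PyMT mice. The ratio of these sums was 24.2 and 18.7 in WT and 35.2 and 27.3 in PyMT mice, with no overlap. Calls depended on single mice, and where a genotype was left with 1 mouse that mouse was assumed to vary like the other group. Without WT 2, Pdia6 and Dnajb11 were no longer called (adjusted p = 0.102 and 0.257) while Hspa5 and Sdf2l1 were. The count of members called higher was 12 without WT 1, 8 without PyMT 1 and 15 without PyMT 2, where 2.91%, 6.03% and 9.54% of all genes were called higher. The log2 change of Atf4 was −0.35 without PyMT 1 and 0.08 without PyMT 2.

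Markers of cell composition differed between genotypes as well. The 6 granulocyte-monocyte markers (Mpo, Elane, Prtn3, Ctsg, Ms4a3 and Cebpe), all listed, summed to 7071 and 3201 CPM in the WT mice and 10630.4 and 7997 CPM in the PyMT mice, with 6 of 6 at a log2 change above 0 and none called. The 6 megakaryocyte-erythroid markers summed to 874 and 836 CPM in the WT mice and 307 and 368 CPM in the PyMT mice, with 4 of 6 called lower, and the 6 stem-cell markers to 387 and 469 CPM in the WT mice and 208 and 289.5 CPM in the PyMT mice, with 1 of 6 called lower. The 5 megakaryocyte markers summed to 690.4 and 628 CPM in the WT mice and 220.1 and 261 CPM in the PyMT mice, with 3 called lower, and the 7 monocyte and macrophage markers to 83.7 and 48.5 CPM in the WT mice and 139 and 101 CPM in the PyMT mice, with 1 called higher and 1 lower. Of 7 plasma cell markers 4 were in the table and summed to 14.9 and 17.2 CPM in the WT mice and 17.7 and 40.0 CPM in the PyMT mice. The 11 listed immediate-early and dissociation genes summed to 1251 and 1629 CPM in the WT mice and 1712 and 1820.3 CPM in the PyMT mice, with 1 called higher. No listed marker of these sets was at 0 in all 4 libraries, and their part in the changes of the members was not tested over all cells.

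HSPC were also compared within ranges of granule-gene share, a step chosen after seeing the data. Cells were split by the percent of their UMIs from the 6 granulocyte-monocyte markers into a low range under 0.1%, a middle range and a high range from 1.0%. These are ranges of a score, not cell types, and 1452 and 817 of 14842 cells lay within 20% of the lower and upper limits. The high range held 12.1% and 3.26% of cells in WT 1 and WT 2 and 21.3% and 13.9% in PyMT 1 and PyMT 2. The low range held 20.5% and 38.8% against 5.997% and 15.3%. High-range cells were about as deep in 3 mice, with medians of 12190.0, 12738 and 12448 UMIs, and shallower in PyMT 2 with 8418. Shares were not equal within ranges. The median share in the middle range was 0.241% and 0.200% in the WT and 0.295% and 0.257% in the PyMT mice. In the low range it was 0.0637% and 0.0519% in the WT and 0.0773% and 0.0658% in the PyMT mice. In the high range the genotypes overlapped. The part of these differences in the changes of the members was not tested.

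The chaperone arm was highest in the high range in every mouse. In the low range its summed CPM was 4058 and 3707 in the WT and 4887 and 4063 in the PyMT mice. In the middle range it was close to this, at 3852 and 3701 in the WT and 4957 and 4132 in the PyMT mice. In the high range it was 7818 and 7377 in the WT and 9459 and 8012 in the PyMT mice. The PERK-ATF4 sum went the other way, from 193 and 206 CPM in the middle to 148 and 157 in the high range of the WT mice. Its genes did not move alike, in values scaled by a fit per range. Ppp1r15a and Ddit3 were lower in the high than in the middle range in every mouse. Asns was higher in the high than in the middle range in every mouse, but it was highest in the low range in every mouse. There it stood at 59.4 and 47.3 CPM in WT 1 and WT 2 and 67.3 and 54.3 CPM in PyMT 1 and PyMT 2. Atf4 in the high against the middle range was higher in both PyMT mice and slightly lower in both WT mice. Calls between genotypes differed by range, and an uncalled member is not shown to be equal between genotypes. Cell numbers were uneven, from 72 cells in the high range of WT 2 to 3972 in the middle range of PyMT 2. In the high range 6 members were called higher in PyMT (Hspa5, Sdf2l1, Pdia6, Manf, Creld2 and Herpud1), where 1.2% of all genes were. In the middle range 5 were (Hspa5, Sdf2l1, Pdia6, Creld2 and Xbp1), where 0.79% of all genes were. In the low range edgeR called none, where 0.174% of all genes were called higher. An unadjusted p under 0.05 was reached by 10 members in either direction, among them Atf4, which was lower in PyMT. The share of all genes at that unadjusted p is not given here.

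Hspa5 in the high range stood at 968 and 797 CPM in WT 1 and WT 2 and 1534 and 1269 CPM in PyMT 1 and PyMT 2, a rise with no overlap (log2 change 0.66, SE 0.11, adjusted p = 0.00275). In the middle range it stood at 399.6 and 365 CPM in WT 1 and WT 2 and 777 and 591 CPM in PyMT 1 and PyMT 2 (log2 change 0.84, SE 0.13, adjusted p = 0.0335), and its log2 change in the low range was 0.53 (adjusted p = 0.231). Sdf2l1 in the high range stood at 451 and 423 CPM in WT 1 and WT 2 and 698 and 592 CPM in PyMT 1 and PyMT 2 (log2 change 0.56, SE 0.10, adjusted p = 0.00436), and Pdia6 at 965 and 897 CPM in WT 1 and WT 2 and 1291 and 1222 CPM in PyMT 1 and PyMT 2 (log2 change 0.43, SE 0.10, adjusted p = 0.0179). In both genes the PyMT mice were well above the WT mice. Manf in the high range stood at 481 and 453 CPM in WT 1 and WT 2 and 709.5 and 576 CPM in PyMT 1 and PyMT 2, Creld2 at 104 and 82.0 CPM in WT 1 and WT 2 and 166 and 132 CPM in PyMT 1 and PyMT 2 and Herpud1 at 118 and 103 CPM in WT 1 and WT 2 and 193 and 161 CPM in PyMT 1 and PyMT 2. All 3 were apart by genotype, with log2 changes of 0.46 (adjusted p = 0.0209), 0.63 (adjusted p = 0.0137) and 0.65 (adjusted p = 0.00492). Xbp1 rose in the middle range, from 97.8 and 91.0 CPM in WT 1 and WT 2 to 146 and 142 CPM in PyMT 1 and PyMT 2 (log2 change 0.61, SE 0.09, adjusted p = 0.0128). Calr had no such rise and in the high range stood at 1830.3 and 1832 CPM in WT 1 and WT 2 and 2028 and 1362 CPM in PyMT 1 and PyMT 2. PyMT 2 was the lowest there, and the log2 change was −0.13, −0.07 and −0.11 in the low, middle and high range, against 0.27 over all cells. Atf4 was not called in any range, with log2 changes of −0.31, −0.22 and 0.03. Cells within a range can still differ in kind: the plasma cell markers summed to 214 CPM in the low range of PyMT 2 and 15.3 in that of WT 1, and their part was not tested.

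**Figure D2:**
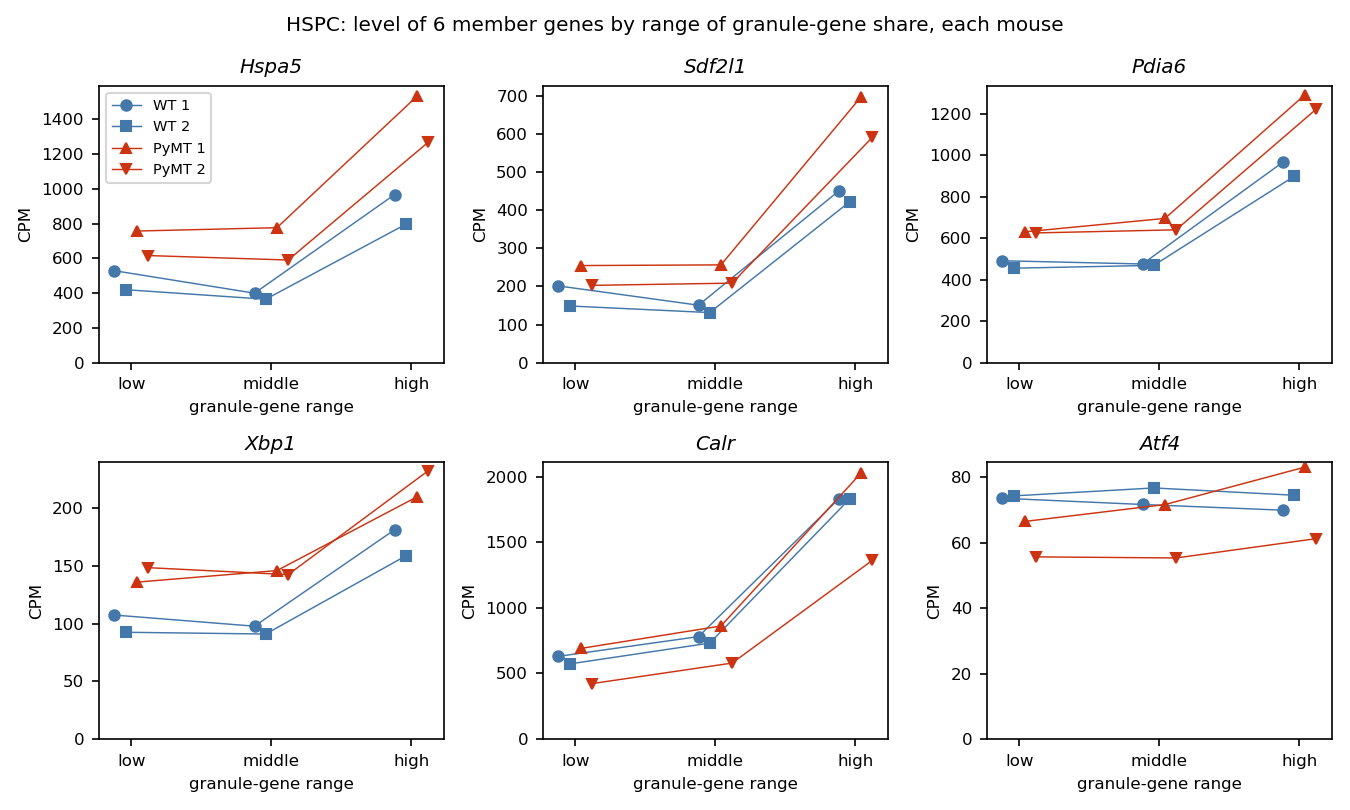
CPM (vertical axis from 0) of 6 members in the low, middle and high range of granule-gene share (horizontal axis), 1 line per HSPC mouse. Hspa5, Sdf2l1, Pdia6, Xbp1 and Calr are highest in the high range in all 4 mice, Hspa5 and Sdf2l1 are higher in both PyMT mice in each range, and Calr of the genotypes overlaps in each. Atf4 is lower in both PyMT mice in the low and middle ranges, with PyMT 1 barely below WT 1 in the middle, and overlaps in the high range.

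Within the authors' cell cycle phases the difference between genotypes kept its direction for the chaperone-arm median. Values within a phase were scaled in a fit of their own, so they differ slightly from those used to compare phases. In G1 cells 4 members were called higher in PyMT (Xbp1, Pdia6, Dnajb11 and Creld2), where 1.07% of all genes were. In S cells 1 was (Pdia6), where 0.276% were, and in G2M cells 2 were (Xbp1 and Pdia6), where 1.26% were. The chaperone-arm median log2 change was 0.50 in G1, 0.43 in S and 0.40 in G2M, with all genes at −0.01 in each. In G1, Xbp1 stood at 125 and 105 CPM in WT 1 and WT 2 and 177 and 177 CPM in PyMT 1 and PyMT 2 (log2 change 0.62, SE 0.10, adjusted p = 0.0247) and Creld2 at 70.0 and 59.5 CPM in WT 1 and WT 2 and 118 and 92.9 CPM in PyMT 1 and PyMT 2 (log2 change 0.70, SE 0.13, adjusted p = 0.0391). Pdia6 and Dnajb11 had log2 changes of 0.69 (adjusted p = 0.0349) and 0.50 (adjusted p = 0.0363) there. Every one of these 4 separated the genotypes. Pdia6 in S stood at 667 and 540.4 CPM in WT 1 and WT 2 and 1009 and 895 CPM in PyMT 1 and PyMT 2 (log2 change 0.65, SE 0.12, adjusted p = 0.0327). Xbp1 in G2M stood at 98.4 and 75.3 CPM in WT 1 and WT 2 and 156 and 144 CPM in PyMT 1 and PyMT 2 (log2 change 0.78, SE 0.13, adjusted p = 0.0124). Hspa5 did not pass the threshold in any phase, with log2 changes of 0.95 (adjusted p = 0.0508) in G1, 0.86 (adjusted p = 0.329) in S and 0.94 (adjusted p = 0.0622) in G2M. No member was called for a genotype difference that changed with phase, where edgeR called 0.634% of all genes. An unadjusted p under 0.05 was reached there by 3 members, with no share of all genes at that p given here. DESeq2 was not run on that term.

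Of the wider pathway lists, Spcs2, a signal peptidase subunit, was the only one of 19 tested translocon and glycosylation genes called higher in PyMT HSPC (log2 change 0.57, adjusted p = 0.04997). Cebpb, a myeloid transcription factor counted among stress targets, rose (log2 change 1.38, adjusted p = 0.0193), as did Nars, an aminoacyl-tRNA synthetase (log2 change 0.43, adjusted p = 0.0497), making 2 of 25 tested ATF4 and integrated stress response targets. None of 14 more degradation genes, 15 more folding enzymes, 12 collagen folding genes, 5 eIF2 kinase and phosphatase genes or 11 genes of sensor transport was called by edgeR. Of these lists 3, 6, 1, 2 and 2 genes had an unadjusted p under 0.05, with no share of all genes at that p given here.

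Compared within each of the 4 mice, 13 of 15 chaperone-arm genes rose in S against G1 cells, and in G2M cells Hspa5, Sdf2l1 and Xbp1 were among those that fell. These fits block on the mouse, so their counts are not set against those of the genotype comparison. In S against G1, 19 of 31 tested members rose and 4 fell, where 22.6% of all genes rose and 16.9% fell. In G2M against G1, 8 rose and 10 fell, where 27.2% of all genes rose and 25.6% fell. In the chaperone arm 13 of 15 rose and 1 fell in S, with a median log2 change of 0.29, and 4 rose and 5 fell in G2M, with a median of 0.01. All genes had a median of 0.00 in both, and the G2M counts of members lay near the shares over all genes. The authors' phase calls rest on genes and a method not given in the sources used here.

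Values by phase are given in the order WT 1, WT 2, PyMT 1 and PyMT 2, and changes are on the log2 scale against G1. Hspa5 stood at 517, 404, 1032 and 743 CPM in G1, 685, 443, 1207 and 875 CPM in S and 479.8, 340.3, 896 and 679.7 CPM in G2M. It rose in S and fell in G2M in 4 of 4 mice, with log2 changes of 0.26 in S (adjusted p = 1.9e-08) and −0.17 in G2M (adjusted p = 1.0e-05). Sdf2l1 stood at 215, 152, 412 and 294 CPM in G1, 331, 214, 518 and 407 CPM in S and 172, 115, 314 and 245 CPM in G2M. Its changes were the same in kind, 0.47 in S (adjusted p = 1.2e-12) and −0.34 in G2M (adjusted p = 3.5e-10), again in 4 of 4 mice each. Hsp90b1 stood at 342, 295, 537 and 373 CPM in G1, 451, 388, 636 and 492 CPM in S and 385, 359, 529 and 437 CPM in G2M. It rose in both phases, 0.36 in S (adjusted p = 3.2e-09) and 0.16 in G2M (adjusted p = 2.6e-04), although PyMT 1 was slightly lower in G2M than in G1. Calr stood at 855, 668, 1199.7 and 678 CPM in G1, 1277, 911, 1568 and 952 CPM in S and 1009.5, 703, 1159 and 786.2 CPM in G2M, and changed by 0.48 in S (adjusted p = 1.3e-09) and 0.12 in G2M (adjusted p = 0.00767). S was above G1 in every mouse. Dnajb11 stood at 124, 114, 173 and 163 CPM in G1, 164, 138, 233 and 184 CPM in S and 144, 128, 179 and 173 CPM in G2M, and rose in both phases in 4 of 4 mice, 0.33 in S (adjusted p = 2.0e-07) and 0.12 in G2M (adjusted p = 0.00763). Dnajb9 (ERdj4, a J-protein that guides substrates to degradation) stood at 25.3, 26.6, 31.3 and 31.8 CPM in G1, 23.4, 16.8, 22.1 and 23.7 CPM in S and 18.4, 18.4, 19.1 and 17.8 CPM in G2M. It fell in both phases, −0.40 in S (adjusted p = 0.00213) and −0.65 in G2M (adjusted p = 3.5e-09), and its G1 values did not overlap those of S or G2M.

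Among isomerases, Pdia6 stood at 536, 461, 875 and 732 CPM in G1, 687, 558, 1051 and 929 CPM in S and 573, 441, 825 and 773 CPM in G2M. It rose in S alone of the tests made, with log2 changes of 0.31 in S (adjusted p = 4.8e-11) and 0.01 in G2M (adjusted p = 0.828). Pdia3 stood at 636, 578, 916 and 782 CPM in G1, 816, 669, 1028 and 916 CPM in S and 590.5, 484, 779 and 731 CPM in G2M. It rose in S and fell in G2M, 0.24 in S (adjusted p = 4.5e-08) and −0.17 in G2M (adjusted p = 6.4e-06), in 4 of 4 mice each. Pdia4 stood at 123, 102, 177 and 141 CPM in G1, 142, 92.0, 217 and 146 CPM in S and 155, 110.4, 199 and 176 CPM in G2M. It was called in both, 0.14 in S (adjusted p = 0.0475) and 0.24 in G2M (adjusted p = 1.3e-04), with WT 2 against the direction in S, where the call was lost under most alternatives. Manf stood at 284, 238, 484 and 348 CPM in G1, 378, 303, 532 and 429.6 CPM in S and 277, 214, 424 and 324 CPM in G2M, and changed by 0.29 in S (adjusted p = 2.3e-08) and −0.12 in G2M (adjusted p = 0.00214). Creld2 stood at 66.2, 56.4, 112 and 88.2 CPM in G1, 98.6, 88.3, 130.5 and 124 CPM in S and 71.0, 57.4, 111 and 84.4 CPM in G2M. It rose in S in 4 of 4 mice, 0.45 in S (adjusted p = 6.3e-08) and 0.01 in G2M (adjusted p = 0.987). Ssr1, a subunit of the translocon-associated complex, stood at 209, 199, 254 and 193 CPM in G1, 269.6, 231, 287 and 229.8 CPM in S and 227, 207, 242 and 209 CPM in G2M, and rose in S, 0.26 in S (adjusted p = 1.3e-06) and 0.06 in G2M (adjusted p = 0.179).

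The sensors and degradation genes were split. Xbp1 stood at 118, 99.4, 168 and 168 CPM in G1, 113, 66.4, 161 and 150.4 CPM in S and 99.96, 76.4, 159 and 146 CPM in G2M. It fell in both phases in 4 of 4 mice, −0.16 in S (adjusted p = 0.0178) and −0.21 in G2M (adjusted p = 1.5e-04), although the call in S was lost without WT 2 or PyMT 2. Edem1 stood at 25.1, 21.0, 32.4 and 28.6 CPM in G1, 34.7, 35.0, 50.1 and 41.5 CPM in S and 40.7, 24.0, 35.6 and 41.3 CPM in G2M. It rose in both, 0.58 in S (adjusted p = 7.1e-05) and 0.41 in G2M (adjusted p = 9.5e-05), and its G1 and S values did not overlap. Herpud1 stood at 111, 97.4, 154 and 133 CPM in G1, 102, 110.2, 160.1 and 137 CPM in S and 101, 95.1, 141 and 123 CPM in G2M. It was not called in S and fell in G2M, 0.03 in S (adjusted p = 0.637) and −0.11 in G2M (adjusted p = 0.0191). Atf6 rose in G2M, with a log2 change of 0.36 (adjusted p = 0.00506), and Sel1l also did, with 0.26 (adjusted p = 6.7e-04).

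The PERK-ATF4 genes did not move together. Atf4 stood at 64.8, 65.9, 69.2 and 50.8 CPM in G1, 74.0, 81.7, 90.9 and 72.3 CPM in S and 80.3, 83.7, 81.8 and 62.8 CPM in G2M. It rose in both phases in 4 of 4 mice, 0.36 in S (adjusted p = 1.4e-05) and 0.30 in G2M (adjusted p = 5.8e-06). Ppp1r15a stood at 64.0, 69.6, 60.4 and 71.2 CPM in G1, 35.9, 44.5, 31.7 and 41.5 CPM in S and 46.0, 47.2, 45.2 and 49.0 CPM in G2M. It fell in both, −0.81 in S (adjusted p = 1.5e-11) and −0.50 in G2M (adjusted p = 1.3e-09), with no overlap between G1 and S or G2M. Trib3 stood at 4.67, 8.35, 5.13 and 6.92 CPM in G1, 0, 1.46, 1.36 and 1.58 CPM in S and 0.422, 1.24, 1.94 and 1.59 CPM in G2M. These values rest on 81, 96, 93 and 130 UMIs in G1 and on 0 to 13 per mouse in S and G2M, and the changes were −2.46 in S (adjusted p = 9.4e-07) and −2.22 in G2M (adjusted p = 2.0e-10). Asns stood at 36.3, 37.3, 43.1 and 42.8 CPM in G1, 38.9, 50.4, 50.4 and 55.7 CPM in S and 24.8, 23.4, 32.6 and 32.1 CPM in G2M. It rose in S and fell in G2M, 0.27 in S (adjusted p = 0.00527) and −0.49 in G2M (adjusted p = 6.6e-08), in 4 of 4 mice each. Ddit3 stood at 19.5, 18.8, 14.01 and 18.4 CPM in G1, 23.0, 17.5, 14.3 and 12.2 CPM in S and 19.9, 20.9, 16.002 and 20.8 CPM in G2M, and was called in neither phase, −0.08 in S (adjusted p = 0.681) and 0.13 in G2M (adjusted p = 0.216). Chac1 had too few UMIs to test.

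**Figure D3:**
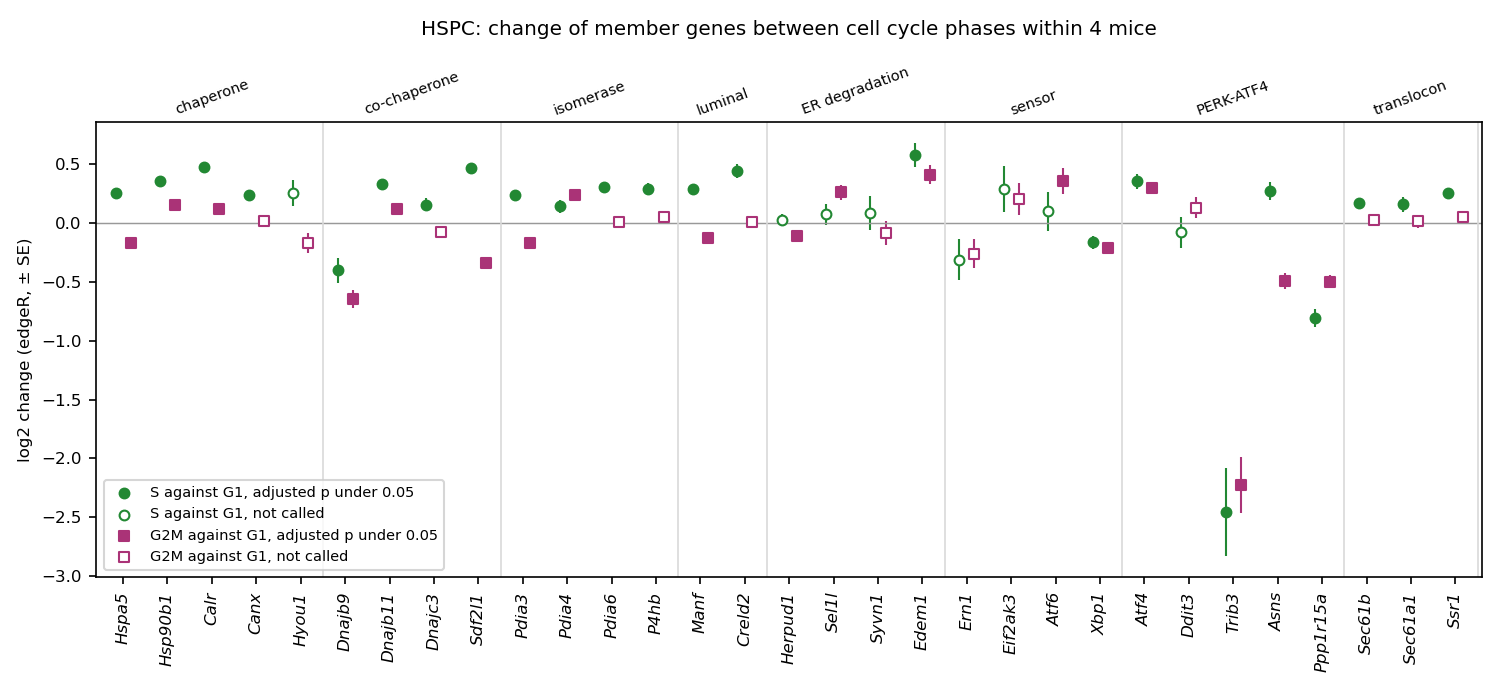
Log2 change (edgeR, with its SE) of 31 members in S (circles) and G2M (squares) against G1 within 4 mice, filled where called. Circles of the chaperone arm lie above 0 except Dnajb9, squares lie on both sides, and Trib3 is the lowest in both phases.

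Other measures differed between phases too. Median UMIs per cell were 3592 to 5962 in G1 and 6622 to 10975 in S and G2M across mice. The granulocyte-monocyte markers summed to 6820.3 ± 3065, 9643 ± 3844 and 7275 ± 2839 CPM (SD, n = 4 mice) in G1, S and G2M. The immediate-early genes summed to 1873 ± 281, 1087 ± 171 and 1148 ± 192 CPM. Their part in the changes of the members was not tested. Without the mouse as a block, 1 member rose and 3 fell in S, where 7.90% and 5.72% of all genes did. In G2M 0 rose and 4 fell, where 10.7% and 10.3% of all genes did. Without WT 1, 5 rose in G2M in place of 8, where 22.7% of all genes rose. DESeq2 called 5 higher there, where it called 19.3% of all genes higher. Some calls in S rested on single mice or settings. Pdia4 in S was not called without WT 1, PyMT 1 or PyMT 2, with RLE factors or by DESeq2, and Xbp1 in S was not called without WT 2 or PyMT 2. In S, Asns was not called without PyMT 2, Dnajc3 not without WT 1, WT 2 or PyMT 2, and Sec61a1 not without WT 1, WT 2 or PyMT 1. DESeq2 did not call Dnajc3 or Sec61a1 either, nor did RLE factors give a call for Sec61a1. In G2M, Atf6 and Calr were not called without WT 1 or PyMT 2 or by DESeq2, Dnajb11 not without WT 1 or by DESeq2, and Herpud1 not without WT 1 or PyMT 2 or by DESeq2.

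The wider lists are read against the shares of all genes, 22.6% higher and 16.9% lower in S and 27.2% higher and 25.6% lower in G2M. Of 19 translocon and glycosylation genes 11 rose and 1 fell in S, led by Ssr2 (log2 change 0.33, adjusted p = 2.5e-10) and Ddost, an oligosaccharyltransferase subunit (log2 change 0.35, adjusted p = 5.2e-10), and Sec62 was the 1 that fell (log2 change −0.15, adjusted p = 0.00102). In G2M 12 rose and 2 fell. Of 15 more folding enzymes 8 rose and 0 fell in S, led by Fkbp2 (log2 change 0.52, adjusted p = 8.6e-12) and Pdia5 (log2 change 0.48, adjusted p = 6.2e-06), and 7 rose and 3 fell in G2M. Collagen folding genes, of which 9 were tested, had 1 higher in S and 7 lower in G2M, led by P3h3 (log2 change −0.69, adjusted p = 1.5e-07) and Crtap (log2 change −0.41, adjusted p = 1.6e-06). Of 23 ATF4 and integrated stress response targets 11 rose and 4 fell in S. The serine synthesis enzyme Psat1 rose (log2 change 0.64, adjusted p = 3.0e-14), and Ddit4, a stress-induced inhibitor of mTORC1, fell (log2 change −1.12, adjusted p = 6.2e-09). In G2M 4 rose and 7 fell, near the shares over all genes.

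In each of the 3 stromal clusters compared, Atf4 and Ppp1r15a were higher in the PyMT than in the WT library. The chaperone-arm ratios all lay below 0 in 2 of these clusters, for most genes by less than 1.5-fold. With 1 library per genotype there is no test and no replicate check, and intervals cover counting error only. Of the authors' 6 clusters, 3 held at least 100 kept cells in each library and are compared: cluster 0 (977 WT and 2242 PyMT cells, LepR+ mesenchymal-like, with Adipoq and Esm1 among its leading genes), cluster 1 (441 and 367 cells, tendon- and cartilage-like, led by Fmod and Chad) and cluster 2 (559 and 346 cells, fibroblast-like, led by Dpt and Pi16). The PERK-ATF4 genes with at least 20 UMIs, 4 of 6, had a median log2 ratio of PyMT to WT of 0.73, 0.43 and 0.21 in clusters 0, 1 and 2. The 15 chaperone-arm genes had −0.03, −0.38 and −0.37, and all genes 0.08, 0.16 and 0.08. All 15 ratios were below 0 in clusters 1 and 2, and 9 of 15 in cluster 0. Counting intervals held 0 for Dnajb9, Hyou1 and P4hb in cluster 1 and for Dnajb9 and Hyou1 in cluster 2.

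At a fold of at least 1.5, 4 of 30 members were higher in PyMT cells of cluster 0 (Asns, Dnajb9, Ddit3 and Atf4) and none lower, where 12.1% of all genes were higher and 7.44% lower. In cluster 1, 2 were higher (Ppp1r15a and Atf6) and 7 lower (Sdf2l1, Manf, Creld2, Asns, Sec61b, Herpud1 and Pdia6), where 17.3% and 5.65% of all genes were. In cluster 2, 1 was higher (Ern1) and 6 lower (Sdf2l1, Manf, Creld2, Sec61b, Dnajb11 and Pdia6), where 11.2% and 5.92% were. Immediate-early and dissociation genes also differed: 12 of 12 were higher in PyMT in each of these clusters, with a summed level of 29292 and 53202 CPM in WT and PyMT cells of cluster 0, 10701 and 23331 in cluster 1, and 13318 and 26509 in cluster 2. Their part in the stromal ratios was not tested. Median UMIs per kept cell were 3591 and 4422 in WT and PyMT cells of cluster 0, 4573 and 4173 in cluster 1, and 5655 and 5206 in cluster 2. With each cell thinned to 1500 UMIs, 2, 4 and 2 members were at least 1.5-fold higher in PyMT cells of clusters 0, 1 and 2. Neither the share of all genes nor the count of lower members after thinning is given here.

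In cluster 0, Hspa5 stood at 2155 CPM in WT and 2737 CPM in PyMT cells, a log2 ratio of 0.35 (0.31 to 0.38), with the 95% interval in brackets here and below. In clusters 1 and 2 it was lower in PyMT cells, −0.42 (−0.49 to −0.34) and −0.43 (−0.50 to −0.36). Hsp90b1 was lower in all 3 clusters, with 1175 CPM in WT and 978 CPM in PyMT cells of cluster 0 and log2 ratios of −0.26 (−0.32 to −0.21), −0.54 (−0.64 to −0.45) and −0.30 (−0.39 to −0.22). Calr stood at 702 CPM in WT and 686 CPM in PyMT cells of cluster 0, and its ratios were −0.03 (−0.10 to 0.03), −0.29 (−0.40 to −0.17) and −0.58 (−0.69 to −0.47). Its interval held 0 in cluster 0 and lay below 0 in the others.

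Among the co-chaperones, Dnajb9 and Sdf2l1 had ratios of opposite sign in cluster 0, and all 4 were below 0 in clusters 1 and 2. Dnajb9 stood at 177 CPM in WT and 334 CPM in PyMT cells of cluster 0, the second highest ratio of any member there, 0.91 (0.79 to 1.03), and at −0.16 (−0.39 to 0.07) and −0.07 (−0.27 to 0.13) in clusters 1 and 2. Sdf2l1 had the lowest ratio in each of the 3 clusters: −0.53 (−0.73 to −0.33), −1.44 (−1.82 to −1.08) and −1.81 (−2.27 to −1.37), from 85.9 CPM in WT and 24.6 CPM in PyMT cells of cluster 2. Pdia4 stood at 209 CPM in WT and 172 CPM in PyMT cells of cluster 0 and had ratios of −0.28 (−0.40 to −0.16), −0.44 (−0.69 to −0.18) and −0.37 (−0.59 to −0.16), all with intervals below 0. Pdia6 had −0.16 (−0.25 to −0.08), −0.76 (−0.93 to −0.59) and −0.70 (−0.86 to −0.53). Manf stood at 598 CPM in WT and 261 CPM in PyMT cells of cluster 1 and at 448 CPM in WT and 192 CPM in PyMT cells of cluster 2. Its ratios of −1.19 (−1.35 to −1.04) and −1.22 (−1.38 to −1.06) were followed by those of Creld2, −1.18 (−1.55 to −0.82) and −0.92 (−1.33 to −0.52), while in cluster 0 they were −0.17 (−0.27 to −0.07) and −0.11 (−0.37 to 0.16).

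Atf4 was higher in PyMT cells of all 3 clusters. It stood at 289 CPM in WT and 457 CPM in PyMT cells of cluster 0, with ratios of 0.66 (0.57 to 0.76), 0.55 (0.37 to 0.74) and 0.49 (0.35 to 0.63). Ppp1r15a was likewise higher in all 3, 0.52 (0.42 to 0.62), 0.89 (0.67 to 1.11) and 0.43 (0.28 to 0.59), from 292 CPM in WT and 419 CPM in PyMT cells of cluster 0. Ddit3 stood at 61.6 CPM in WT and 108 CPM in PyMT cells of cluster 0, a ratio of 0.80 (0.60 to 1.02), and its intervals held 0 in clusters 1 and 2. Asns rested on few UMIs: 4 in WT and 34 in PyMT cells of cluster 0, a ratio of 1.59 (0.10 to 3.54), and 45 and 20 in cluster 1, −0.89 (−1.72 to −0.10). Trib3 had 0 to 10 UMIs per library and cluster here, too few for a ratio, and Chac1 0 to 7.

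Xbp1 stood at 201 CPM in WT and 222 CPM in PyMT cells of cluster 0, with ratios of 0.14 (0.02 to 0.26), −0.29 (−0.48 to −0.09) and −0.21 (−0.39 to −0.03). Herpud1 followed the same order, 0.17 (0.01 to 0.34), −0.76 (−0.98 to −0.55) and −0.57 (−0.80 to −0.35), from 104 CPM in WT and 117 CPM in PyMT cells of cluster 0. Of the lowest ratios in cluster 0, Syvn1 had −0.36 (−0.67 to −0.03) from 32.1 CPM in WT and 25.1 CPM in PyMT cells, Sec61b −0.33 (−0.46 to −0.19) from 186 CPM in WT and 149 CPM in PyMT cells, and Eif2ak3 −0.31 (−0.66 to 0.05) from 26.2 CPM in WT and 21.1 CPM in PyMT cells. The interval of Eif2ak3 held 0.

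**Figure D4:**
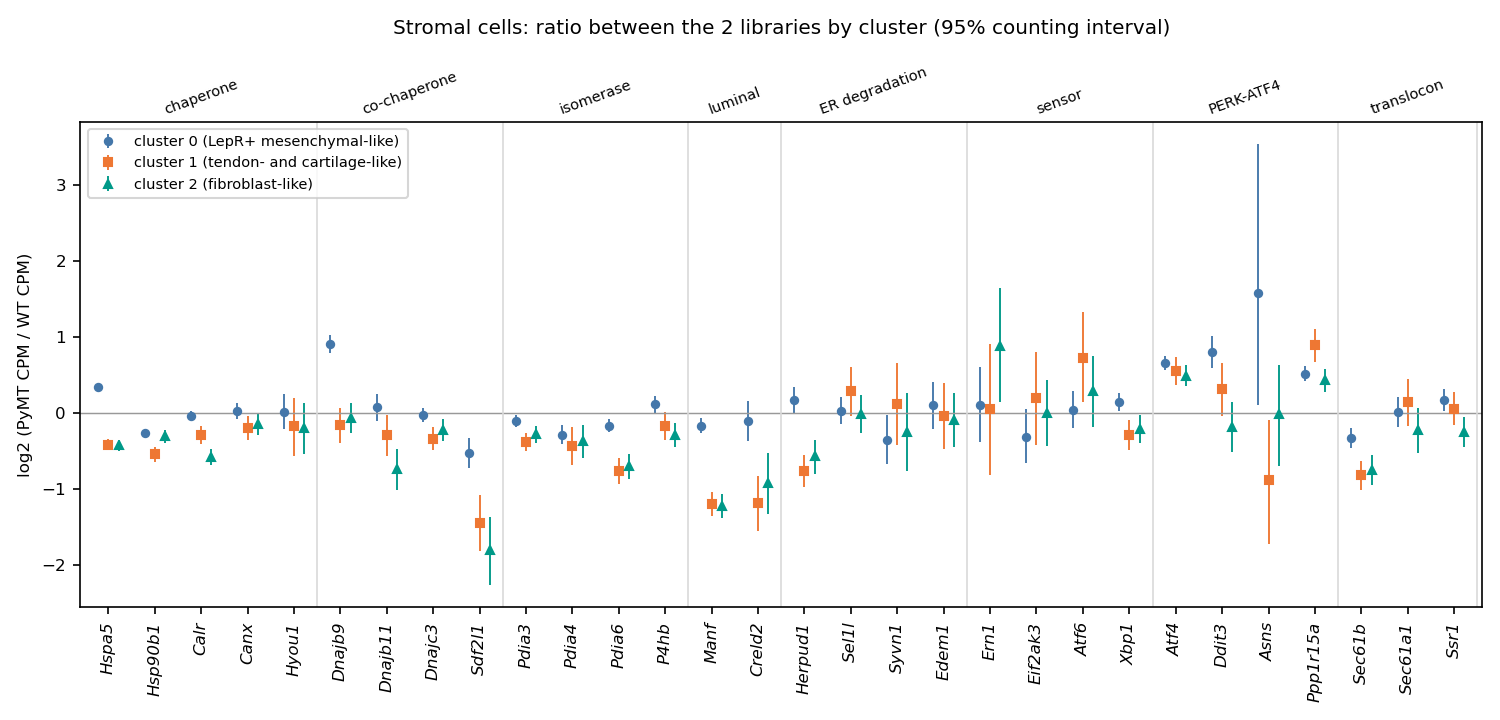
Log2 ratio of PyMT to WT CPM (with its 95% counting interval) of 30 members by role in stromal clusters 0, 1 and 2, 1 library per genotype. In the chaperone arm the points of clusters 1 and 2 all lie below 0, and Atf4 and Ppp1r15a lie above 0 in each cluster.

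The summed level of the chaperone arm in cluster 0 was 6858 CPM (95% interval 6774 to 6943) in WT and 7221 CPM (95% interval 7170.1 to 7273) in PyMT cells. In cluster 1 it was 7031 CPM (95% interval 6920.1 to 7143) and 5063 CPM (95% interval 4959.6 to 5168), and in cluster 2 6269.8 CPM (95% interval 6185 to 6356) and 4638 CPM (95% interval 4546 to 4732). PERK-ATF4 genes summed to 644 CPM (95% interval 618 to 670.1) and 987 CPM (95% interval 968 to 1007) in cluster 0. Chaperone-arm sums were 10.7, 16.4 and 10.6 times the PERK-ATF4 sums in WT cells of clusters 0, 1 and 2, and 7.31, 7.90 and 5.96 times in PyMT cells. The small clusters 3 (sinusoidal endothelial-like), 4 (arterial and capillary endothelial-like) and 5 (osteolineage-like, with the cartilage collagens Col2a1 and Col11a2 also among its leading genes) had 10.2, 4.35 and 21.4 in WT and 6.25, 4.88 and 18.5 in PyMT cells.

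In bulk MSC the only member called between Py230 and tumour-free libraries was Ddit3. Most of the chaperone arm lay slightly lower in Py230 libraries without passing the test. Of 30 tested members 1 was called higher, where 1.99% of all 16317 genes were, and edgeR called none lower, where 2.74% were. At an unadjusted p under 0.05, 3 members were lower, with no share of all genes at that p given here. DESeq2 called Ddit3 and Ern1 higher and Dnajc3 lower, where it called 2.83% of all genes higher and 3.82% lower. In the chaperone arm 14 of 15 log2 changes were below 0, with a median of −0.20 against 0.04 over all genes, and the 4 tested PERK-ATF4 genes had a median of 0.37. Groups did not overlap for 1 of 30 members, Dnajc3, where they did not for 11.0% of all genes. Trib3 and Chac1 had too few counts to test. In bulk, fewer cells of a type and less RNA per cell cannot be told apart.

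Ddit3 stood at 65.9, 48.2, 52.4 and 46.5 CPM in the tumour-free libraries and 86.7, 80.9, 83.5 and 63.5 CPM in the Py230 libraries. The Py230 libraries lay mostly above the tumour-free ones, with the lowest Py230 library, number 4, below the highest tumour-free one, number 1. Means were 53.3 ± 8.81 and 78.6 ± 10.4 CPM (SD, n = 4 each), and Ddit3 rose (log2 change 0.56, SE 0.13, adjusted p = 0.0247). The call was lost when tumour-free 2, 3 or 4 or Py230 1, 2 or 3 was left out (adjusted p = 0.0718 to 0.165), and held without both libraries of few detected genes (0.0215). Exons of Ddit3 share bases with the opposite-strand genes Mars and Gm4189 and, on the same strand, with a second Ddit3 entry. Reads in bases shared on 1 strand cannot be assigned under any strand setting, and the setting used is not given in the sources used here. Mars had a log2 change of −0.26 (adjusted p = 0.411). Exon bases are also shared with opposite-strand genes by Pdia3, Pdia6, Dnajb9, Syvn1, Eif2ak3, Sec61a1 and Ppp1r15a, with a same-strand gene by Pdia4, and with genes on both strands by Hsp90b1 and Manf, so the bulk values of these are uncertain too.

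Of the other PERK-ATF4 genes, Atf4 stood at 353, 311, 323 and 279 CPM in the tumour-free libraries and 369.9, 401, 336 and 318 CPM in the Py230 libraries, with overlapping groups (log2 change 0.17, SE 0.11, adjusted p = 0.493). Asns was low, at 2.60, 3.66, 3.28 and 1.74 CPM in the tumour-free libraries and 4.74, 4.59, 4.003 and 3.40 CPM in the Py230 libraries, and overlapped too (log2 change 0.57, SE 0.36, adjusted p = 0.510). Ppp1r15a had a log2 change of −0.01. The sensor Ern1 stood at 56.0, 61.5, 61.6 and 91.1 CPM in the tumour-free libraries and 89.3, 103, 101 and 87.7 CPM in the Py230 libraries. Tumour-free 4 lay with the Py230 libraries, and the change was just outside the threshold (log2 change 0.50, SE 0.14, adjusted p = 0.0620).

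Hspa5 stood at 1956, 1909, 1646 and 1544 CPM in the tumour-free libraries and 1597, 1845, 1558 and 1589.9 CPM in the Py230 libraries, with overlapping groups (log2 change −0.10, SE 0.11, adjusted p = 0.769). Hsp90b1 stood at 924, 863, 760.1 and 700.2 CPM in the tumour-free libraries and 590.5, 788, 764 and 674 CPM in the Py230 libraries, and Calr at 915, 763, 666 and 644 CPM in the tumour-free libraries and 586, 788, 796 and 657 CPM in the Py230 libraries. Both overlapped and were uncalled, at −0.20 (adjusted p = 0.466) and −0.08 (adjusted p = 0.866). Pdia4 stood at 353, 278, 253 and 205 CPM in the tumour-free libraries and 158, 222, 265 and 203 CPM in the Py230 libraries, with a log2 change of −0.36 (adjusted p = 0.340). Tumour-free 1 was the highest and Py230 1 the lowest. Dnajc3 stood at 224, 232, 189 and 187 CPM in the tumour-free libraries and 166, 177, 150.4 and 161 CPM in the Py230 libraries, where every Py230 library was below every tumour-free one, uncalled by edgeR (log2 change −0.34, SE 0.10, adjusted p = 0.0773). Xbp1 stood at 138, 146, 126 and 123 CPM in the tumour-free libraries and 141, 132, 138 and 116 CPM in the Py230 libraries, and Herpud1 at 70.4, 66.0, 69.0 and 62.9 CPM in the tumour-free libraries and 84.1, 79.4, 79.2 and 57.3 CPM in the Py230 libraries. Neither separated the groups, with log2 changes of −0.01 (adjusted p = 0.973) and 0.16 (adjusted p = 0.569). The other members had log2 changes from −0.45 (Sdf2l1) to 0.24 (Eif2ak3), none called.

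**Figure D5:**
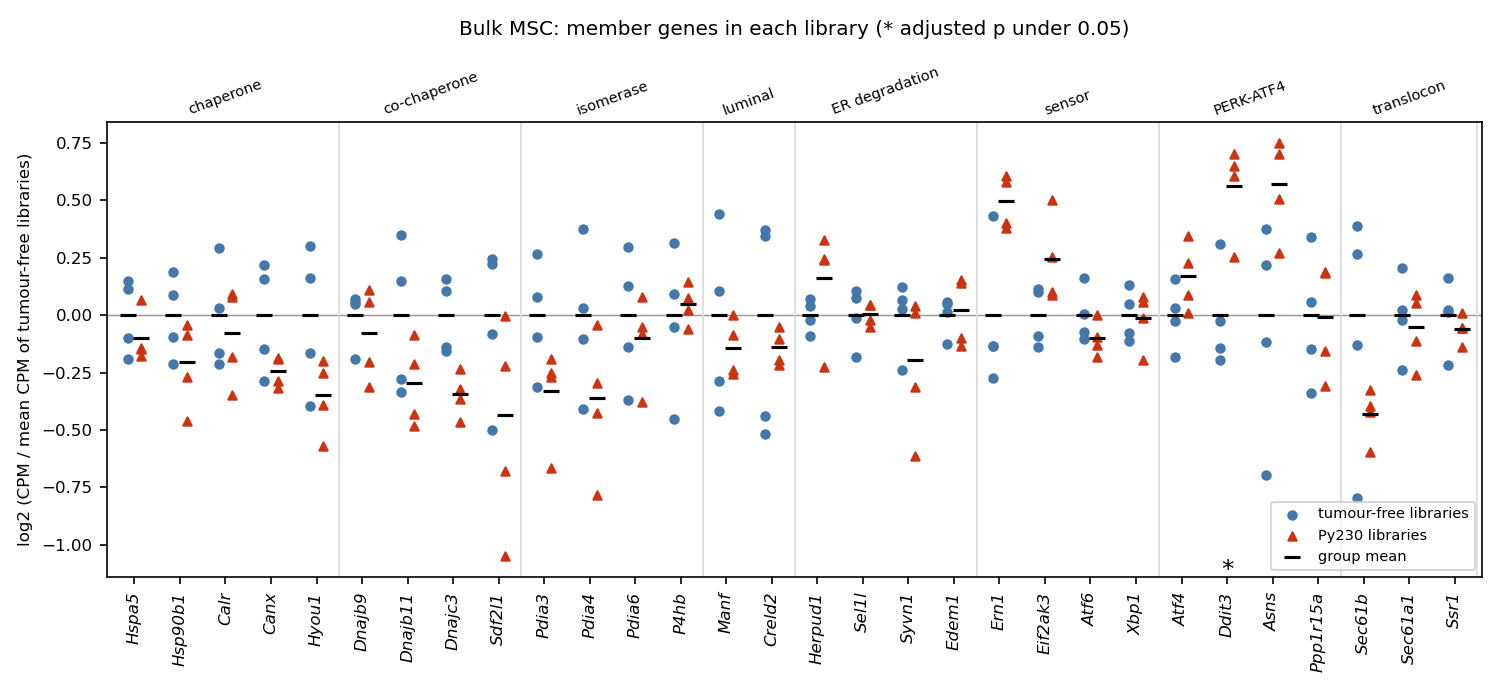
Each bulk MSC library (points) and each group mean (bars) for 30 tested members by role, as log2 of the CPM over the mean CPM of the tumour-free libraries. Py230 means lie below 0 for 14 of 15 chaperone-arm genes with overlapping points except for Dnajc3, and Ddit3 is the only called member.

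Markers differed between the bulk groups. The 9 LepR+ mesenchymal markers summed to 30822 to 33043 CPM in tumour-free and 16628 to 19917 CPM in Py230 libraries, with 5 of 9 called lower. The 7 plasma cell markers summed to 129.6 to 179 and 85.3 to 120.0 CPM, with 1 of 2 tested called lower. Sinusoidal endothelial markers, 6 in all, summed to 23.8 to 31.7 and 39.9 to 88.7 CPM, with 2 called higher, and the 7 monocyte and macrophage markers to 44.0 to 57.4 and 68.4 to 104 CPM, with 1 called higher. Neither list overlapped between groups. The 8 arterial and capillary endothelial markers summed to 10.9 to 23.6 and 17.9 to 85.1 CPM, with 1 called higher. The 5 megakaryocyte markers summed to 9.10 to 12.5 and 13.6 to 20.3 CPM, again without overlap, and none was called. Fibroblast markers, with 1 of 6 tested called higher, ranged over 2067 to 5131 and 1810.1 to 10717 CPM, and the 12 immediate-early genes over 34759 to 35009 and 35540.0 to 38624 CPM, with 2 called higher. No marker of these lists was at 0 in every library. The chaperone-arm sum was 5.53 to 6.05 times the PERK-ATF4 sum in tumour-free and 4.70 to 5.24 times in Py230 libraries, without overlap. The part of the markers in these values was not tested.

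Among the wider lists in MSC, 3 of 26 tested ATF4 and integrated stress response targets rose, led by Ddit4 (log2 change 1.09, adjusted p = 0.00458) and Shmt2, the mitochondrial serine hydroxymethyltransferase (log2 change 1.09, adjusted p = 0.0378), and 1 fell, Cebpb (log2 change −0.45, adjusted p = 0.0457). The collagen prolyl hydroxylase P4ha1 rose (log2 change 0.61, adjusted p = 0.00482), 1 of 12 collagen folding genes. Of 11 genes of sensor transport and processing, Creb3l2 rose (log2 change 0.44, adjusted p = 0.0448) and Bcl2l11, a cell death gene also known as Bim, fell (log2 change −0.47, adjusted p = 0.0321). No gene of the lists of more degradation genes (14 tested), translocon and glycosylation (21), folding enzymes (15) or eIF2 kinases and phosphatases (5) was called by edgeR. At an unadjusted p under 0.05 there were 0, 2, 3 and 1, with no share of all genes at that p given here.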

How the data were processed

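Bulk read counts were deposited unnormalized by Ensembl gene, and single-cell UMI counts by gene and cell, per the file headers. The submitters' processing notes name Trim Galore, STAR 2.5.3a, Cell Ranger 6.0.0 and mm10. The sources used here give neither the bulk counter, its strand setting, the annotation, the sort gates nor the phase-call method. Of the 3′ chemistry the labels name both v3.1 and "v2 or v3". The HSPC table had been filtered to 11992 genes before deposit.

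HSPC counts were summed per mouse, phase or granule-gene range. Bulk and HSPC counts were tested with edgeR 4.0.16 (TMM factors, filterByExpr, quasi-likelihood F test, Benjamini-Hochberg adjustment over all genes), with the mouse as a block between phases, and with DESeq2 1.42.0 as an alternative. The code was checked on simulated counts. Stromal cells were kept from 500 detected genes upward if mitochondrial counts were below 10%, and were summed by the authors' cluster (2190 of 2508 WT and 3191 of 3563 PyMT cells), and no doublet caller was run. Clusters were named from marker lists. Ratios of summed UMIs carry exact (Clopper-Pearson) 95% intervals.

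Members and lists were chosen with earlier results of these data known. Values per library are given for Hspa5, Hsp90b1, Calr, Pdia4, Xbp1, Atf4, Ddit3, Herpud1, Trib3 and Asns and for called members (at most the 12 of smallest p). In stroma the 5 highest and 5 lowest ratios of cluster 0 were added, and of the wider lists the 2 smallest p in each direction.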

Additional observations from a re-analysis of the deposited data

Results flagged for a closer look

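In 60 groups of 4 bulk libraries checked for a value far from the other 3, for which chance gives about 1 in 20, there were 3. Hspa5 was 1845 CPM in Py230 2, above the other Py230 libraries. Dnajb9 was 143 CPM and Ern1 91.1 CPM in tumour-free 4, apart from the other tumour-free libraries.

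Several members had stromal log2 ratios of opposite sign in cluster 0 and in another cluster, with intervals that did not hold 0. The differences between clusters were not tested. Hspa5 was 0.35 in cluster 0 and −0.42 and −0.43 in clusters 1 and 2. Xbp1 was 0.14 against −0.29 and −0.21, and Herpud1 0.17 against −0.76 and −0.57. P4hb was 0.12 in cluster 0 and −0.28 in cluster 2, and Ssr1 0.17 and −0.25. Asns was 1.59 in cluster 0, on 4 and 34 UMIs, and −0.89 in cluster 1.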

How the results depend on the processing

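Of the member counts recomputed under other settings 79 stayed within 1.5 times and 23 did not. In MSC, DESeq2 called 2 members higher and 1 lower, where it called 2.83% and 3.82% of all genes. Leaving out 1 library gave 0 to 1 higher, where 0.772% to 1.76% of all genes were. In HSPC, DESeq2 called 10 higher over all cells, 10 in G1 and 5 in G2M, and leaving out 1 mouse gave 3 to 15 higher and 0 to 1 lower. Of all genes, DESeq2 called 4.41% higher over all HSPC, 4.09% in G1 and 3.89% in G2M. In S it called 1 member higher, where it called 4.81% of all genes higher. Each HSPC fit without 1 mouse leaves 1 mouse in a genotype, and the share of all genes called also differed between these fits. For G2M against G1, DESeq2 called 5 higher, where it called 19.3% of all genes higher. Leaving out 1 mouse gave 5 to 9 higher, where 20.5% to 26.5% of all genes were. The fit with no replicate block called 0 higher and 4 lower, where 10.7% and 10.3% of all genes were. For S against G1 the fit without the block called 1 higher, where 7.90% of all genes were. Thinning stromal cells to 1500 UMIs gave 2, 4 and 2 members at least 1.5-fold higher in clusters 0, 1 and 2, with no share of all genes given beside them. Bulk libraries with the same number did not deviate together (correlations −0.39, −0.13, −0.20 and 0.02, with number 4 alone closest to its own number), and a replicate block called 1 member higher and 0 lower there.

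Leaving out 1 library moved these log2 changes across 0: MSC Calr from −0.19 to 0.018 (above 0 without tumour-free 1), MSC Xbp1 from −0.085 to 0.042 (without Py230 4), HSPC Calr from −0.16 (without PyMT 1) to 0.60, HSPC Atf4 from −0.35 to 0.081 (without PyMT 2), HSPC Trib3 from −0.35 (without WT 1; −0.15 without PyMT 2) to 0.54, and Ddit3 in S from −0.23 to 0.065 (without PyMT 2). Stromal Xbp1 in cluster 2 went to 0.039 after thinning. The cause was not tested. The 2 mice per genotype, the shallower PyMT 2 library and the single stromal library per genotype limit what can be told.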
